A study of Homo sapiens with 45 samples.

Results

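HOS-MNNG and KHOS are sublines of HOS, a human osteosarcoma cell line, and they were compared here with each other. HOS-MNNG, given by the labels as MNNG/HOS Cl #5, is a clone of HOS cells transformed with the alkylating carcinogen MNNG. KHOS, given by the labels as KHOS/NP, is HOS transformed by the Kirsten sarcoma virus. The members were chosen by line name, and they were 3 libraries of HOS-MNNG and 3 libraries of KHOS, 6 of the 45 libraries in the series. No treatment, dose or time point was given for either line. Each line is a single transformed subline, parental HOS cells were not analysed here, and the labels do not say whether the 3 libraries of a line came from separate cultures. The p-values below therefore measure the spread between libraries of 1 line each, which may be technical. What belongs to the transforming agent, to the clone and to separate culture cannot be told apart.

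The RAS proteins pass growth signals from receptors to the RAF, MEK and ERK kinases. MNNG adds methyl groups to DNA, and MNNG/HOS is the line in which the MET receptor gene was first found as an oncogene, fused to TPR. Osteosarcoma is a tumour of bone-forming mesenchymal cells, so collagen, osteopontin and the proteases that cut matrix belong to its usual repertoire.

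The series held poly(A) RNA libraries of 6 osteosarcoma lines, 7 Ewing sarcoma lines and an Ewing sarcoma line with an inducible short hairpin RNA. The 6 libraries used here held between 30281960 and 33938388 estimated counts, of which 1.14% to 1.217% fell on transcripts with no gene name. Levels below are TPM (transcript abundance scaled for length and depth), and fold changes are log2 of KHOS over HOS-MNNG from the estimated counts, with their standard errors. A gene was called at an adjusted p below 0.05, and called at 2-fold where the log2 fold change was also at least 1 in size. Libraries of 1 line correlated at 0.9868 to 0.9911 (Pearson's r of log2 CPM over genes) and libraries of different lines at 0.9357 to 0.9435, and HOS-MNNG library 1 stood farthest from the other libraries of its line. Both lines had mesenchymal and not haematopoietic or endothelial profiles. VIM, the mesenchymal intermediate filament, had 3944 to 4509 TPM in HOS-MNNG and 3092 to 3282 TPM in KHOS. The 5 endothelial markers summed to at most 2.89 TPM in any library, and CD3E and HBB had no counts in either line. The 7 haematopoietic markers summed to 64.7 to 125 TPM, nearly all of it CD68, a lysosomal protein, and PTPRC was at most 0.0497 TPM in any library. Of the epithelial markers, EPCAM was present (means of 8.62 and 13 TPM) and CDH1, the epithelial cadherin, was near 0. CLDN3, a claudin, had 0.71 to 1.98 TPM in HOS-MNNG and 4.38 to 6.22 TPM in KHOS (2.19 ± 0.30). Of 3 epithelial markers tested, 2 were called higher in KHOS, 1 of them at 2-fold (27.1% and 8.58% of all genes).

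A majority of the genes tested differed between the sublines, in both directions. Of 17440 genes tested, 9521 were called (54.6%). KHOS was higher for 4728 (27.1%) and HOS-MNNG for 4793 (27.5%). At 2-fold, 3091 genes were called (17.7%), of which 1497 were higher in KHOS (8.58%) and 1594 in HOS-MNNG (9.14%). An 8-fold difference was reached by 160 genes higher in KHOS and 287 higher in HOS-MNNG. When the fit itself tested for a change beyond 2-fold, 735 genes were higher in KHOS and 845 in HOS-MNNG. In 3041 of the 3091 genes the TPM values of the 3 KHOS libraries did not overlap those of the 3 HOS-MNNG libraries. The genes were chosen on these same libraries, so the lack of overlap largely follows from the choice and is no separate support.

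**Figure D1:**
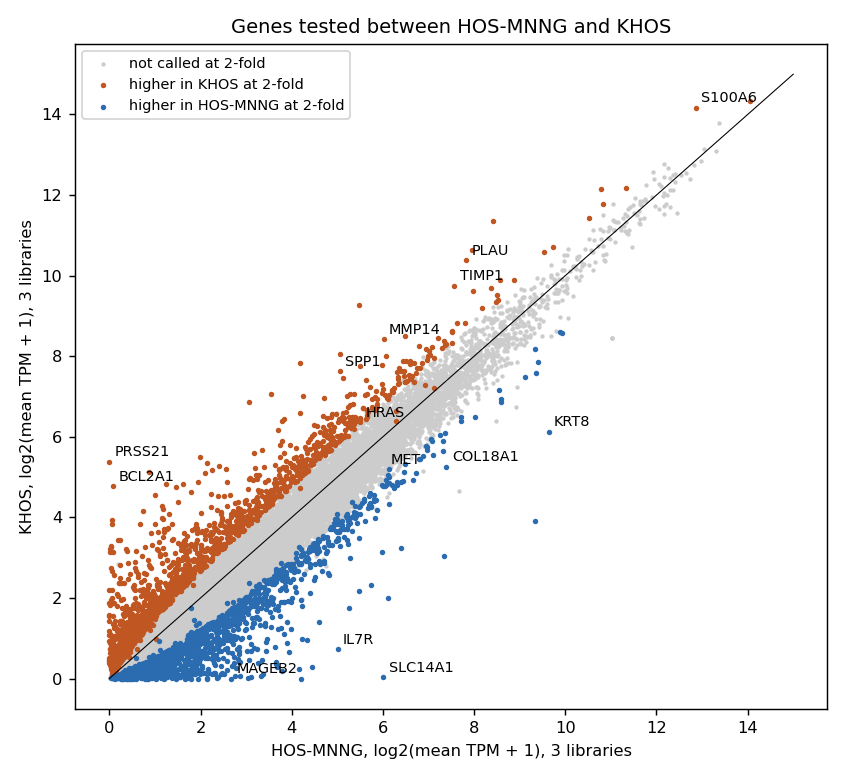
Mean level of each tested gene in HOS-MNNG (x axis) and KHOS (y axis), as log2(TPM + 1) over 3 libraries a line. Coloured points are the 1497 genes higher in KHOS and the 1594 higher in HOS-MNNG at 2-fold, and the line marks equal levels.

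The sublines were nonetheless the closest pair of osteosarcoma lines in the series. Among the 15 pairs of the 6 lines (G292, MG63, SAOS2 and U2OS are the others), the pair HOS-MNNG and KHOS had the smallest share of genes called at 2-fold, and the other 14 pairs ranged from 39.7% to 46.4%. Spearman's rho of mean TPM over 20032 genes was 0.959 for the sublines and 0.783 to 0.853 for the other pairs. These are descriptions of lines that share no common origin apart from this pair. The genes that separated the sublines were also set beside the range of the other lines. They were chosen for a higher level in one subline, which favours a place outside that range. No share over all genes was taken, so the counts are a description. Of 769 genes higher in KHOS at 2-fold with at least 5 TPM there, 198 lay above all 4 other lines in KHOS and within their range in HOS-MNNG, and 139 lay below all 4 in HOS-MNNG and within their range in KHOS. Another 239 lay within the range in both sublines, and 111 lay above it in both. Of 502 genes higher in HOS-MNNG by the same measure, 156 lay below all 4 in KHOS and within range in HOS-MNNG, and 119 lay above all 4 in HOS-MNNG and within range in KHOS. Another 148 lay within range in both sublines, and 26 lay above it in both.

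Genes of the RAS pathway differed in both directions. Of 31 pathway components tested, 11 were higher in KHOS and 10 in HOS-MNNG, beside 27.1% and 27.5% of all genes. The other 10 were not called, and the median log2 fold change was -0.08 against 0.00 over all genes. At 2-fold the list held 6 genes (19.4%), near the 17.7% of all genes. HRAS rose from 41.2, 43.7 and 48.4 TPM in HOS-MNNG to 76.2, 87.3 and 80.1 TPM in KHOS (log2 fold change 1.04 ± 0.09, adjusted p 4.67e-06), without overlap, and so reached the range of the other osteosarcoma lines (70.6 to 95.6 TPM). NRAS was 49.7 to 55.7 TPM in HOS-MNNG and 38.8 to 42.8 TPM in KHOS, a log2 difference of -0.20. Its call was lost without HOS-MNNG library 2 (adjusted p 0.086), KHOS library 1 (0.104) or KHOS library 3 (0.11). The NRAS call was also lost with no low-count filter (0.0646) and in the fit of all 45 libraries (0.441). RASGRP3, an exchange factor that loads RAS with GTP, was higher in KHOS (2.07 ± 0.20). RASGRF1, another exchange factor, and KSR1, a scaffold for RAF and MEK, were lower in KHOS by -2.91 ± 0.19 and -2.66 ± 0.17. KSR1 stood at 13.4, 18.6 and 20.9 TPM against 2.14, 2.63 and 2.69 TPM. Of the MEK kinases, MAP2K1 was higher in KHOS (0.43 ± 0.09, adjusted p 0.00139), a call lost with curated transcripts only (0.0581), and MAP2K2 was not called (-0.08 ± 0.08, adjusted p 0.417).

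Genes that ERK signalling is known to induce passed 2-fold about as often as genes in general, and more of those called were higher in KHOS. Of 20 feedback and target genes, 8 were higher in KHOS and 2 lower, beside 27.1% and 27.5% of all genes, and 10 were not called. The median log2 fold change was 0.23, and 3 passed 2-fold (15%, beside 17.7% of all genes). DUSP6, the phosphatase that turns ERK off, had 87.5, 115 and 86.2 TPM in HOS-MNNG and 89.7, 81.8 and 115 TPM in KHOS (0.17 ± 0.16, adjusted p 0.412). Its levels overlapped between the lines, and all 6 values lay above the means of the 4 other osteosarcoma lines (at most 62.6 TPM). ETV5 (-0.06 ± 0.08) and PHLDA1 (-0.02 ± 0.11) were not called either. SPRY4, a feedback inhibitor, rose from 32.5 to 50.2 TPM in HOS-MNNG to 72.9 to 91.4 TPM in KHOS (1.18 ± 0.14), and SPRED1, SPRY2, DUSP4 and ETV4 rose by less than 2-fold. FOSL1, the AP-1 subunit that accumulates under sustained ERK activity, was higher in KHOS at 476 to 608 TPM against 308 to 378 TPM (0.82 ± 0.12). The feedback inhibitor SPRY1 went the other way (-2.23 ± 0.32), as did CCND1, cyclin D1 (-0.47 ± 0.08). Of 9 tested EGF family ligands and receptors, 3 passed 2-fold, all lower in KHOS (33.3%, beside 17.7% of all genes). EREG (epiregulin) fell from 3.37 to 5.15 TPM to at most 0.123 TPM (-5.12 ± 0.25), and NRG1 (neuregulin) fell by -1.57 ± 0.15.

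MET, the receptor for hepatocyte growth factor, was higher in HOS-MNNG, and a single transcript made the difference. MET (chr7:116672196-116798377) had 65.4, 64.8 and 66.4 TPM in HOS-MNNG and 38.1, 36.6 and 32.5 TPM in KHOS, without overlap. The log2 fold change was -0.58 ± 0.07 (adjusted p 3.65e-05), and the 12 libraries of the other osteosarcoma lines spanned 23.5 to 72.1 TPM. The transcript NM_000245.4 was level, with 27.4, 22.5 and 30.2 TPM in HOS-MNNG and 25.6, 27.3 and 27.04 TPM in KHOS. NM_001324402.2, which is 5608 bases long against 6822 bases, had 35.7, 37.3 and 34.5 TPM in HOS-MNNG and 5.16, 4.90 and 2.98 TPM in KHOS. These values depend on how kallisto divides reads that several transcripts share. TPR, the fusion partner known from MNNG/HOS, differed by -0.26 ± 0.07. A TPR-MET transcript is not among those listed, and its presence was not tested. The ligand HGF had 0 counts over the HOS-MNNG libraries and 1 over the KHOS libraries. Of 11 tested genes around MET, 4 were higher in KHOS at 2-fold, beside 8.58% of all genes. They were MST1R, which encodes the sister receptor RON (3.08 ± 0.57), its ligand MST1 (2.98 ± 0.23), and SPINT1 and SPINT2 (2.31 ± 0.40 and 2.08 ± 0.20), which inhibit the proteases that activate HGF, all under 5 TPM.

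**Figure D2:**
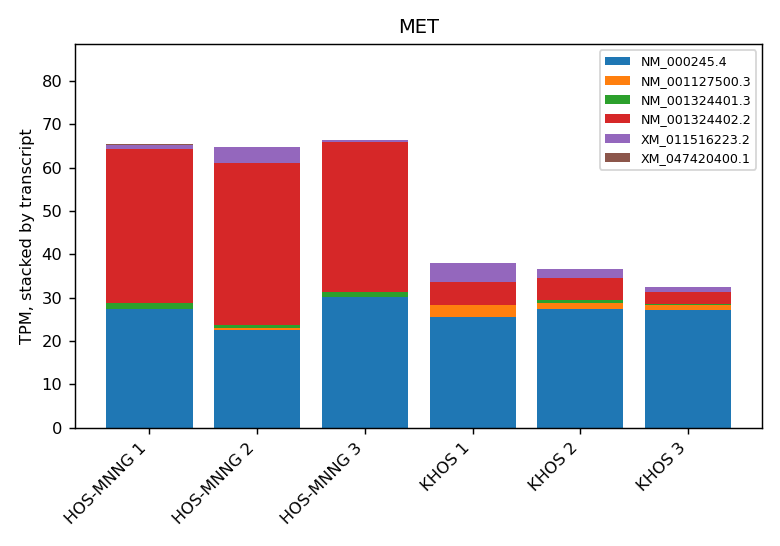
TPM of each RefSeq transcript of MET in the 6 libraries, stacked by transcript. MET is higher in HOS-MNNG through NM_001324402.2, and NM_000245.4 takes a like level in all 6 libraries (22.5 to 30.2 TPM).

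A small set of protein-coding genes was present in one subline and at or near 0 in the other. At a mean of at least 5 TPM in one line and at most 3 counts over the 3 libraries of the other, 5 protein-coding genes were on in KHOS and 2 in HOS-MNNG. PRSS21, the serine protease testisin, had 43.02, 40.07 and 38.73 TPM in KHOS and 0 counts in HOS-MNNG, which makes it at least 935-fold higher against a floor of 3 counts over the line. BCL2A1, an inhibitor of apoptosis, had 22.99, 21.72 and 34.47 TPM in KHOS and 2 counts in HOS-MNNG, a ratio of 487 with a 95% counting interval of 134 to 4026. CARD16, a regulator of caspase-1, rested on 1 count in HOS-MNNG (ratio 314, interval 55.9 to 12420). FAM241B and CHRDL1, an antagonist of BMP signals, had means of 8.74 and 7.78 TPM in KHOS and 1 and 2 counts in HOS-MNNG. MAGEB2, a cancer-testis antigen normally restricted to germ cells, had 5.74, 5.40 and 5.07 TPM in HOS-MNNG and 0 counts in KHOS, at least 142.5-fold lower. INS was the other gene on in HOS-MNNG (11.9, 19 and 21.5 TPM against 0 counts), but it overlaps the INS-IGF2 gene, and reads of the pair cannot be assigned with certainty. Intervals cover counting error only.

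The start regions of PRSS21, BCL2A1 and MAGEB2, 3 of these 7 genes, are shown because the genes were at or near 0 in one subline and present in the other. They are RefSeq promoter windows (GRCh38.p14) of 250 bases before and 50 after the start. CG pairs, the sites of DNA methylation, are in capitals.
PRSS21, chr16:2816987-2817286, plus strand: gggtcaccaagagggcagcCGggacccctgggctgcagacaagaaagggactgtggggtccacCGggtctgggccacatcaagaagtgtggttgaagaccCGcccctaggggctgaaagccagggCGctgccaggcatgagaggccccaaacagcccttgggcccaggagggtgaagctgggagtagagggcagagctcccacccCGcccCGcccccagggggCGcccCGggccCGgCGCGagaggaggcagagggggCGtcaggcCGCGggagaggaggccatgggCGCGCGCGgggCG
BCL2A1, chr15:79971147-79971446, minus strand: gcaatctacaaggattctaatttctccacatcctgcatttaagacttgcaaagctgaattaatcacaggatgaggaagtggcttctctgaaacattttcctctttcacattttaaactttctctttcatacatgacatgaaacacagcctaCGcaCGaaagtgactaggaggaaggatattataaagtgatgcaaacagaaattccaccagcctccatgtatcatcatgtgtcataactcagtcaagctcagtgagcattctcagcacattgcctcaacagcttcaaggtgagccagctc
MAGEB2, chrX:30215313-30215612, plus strand: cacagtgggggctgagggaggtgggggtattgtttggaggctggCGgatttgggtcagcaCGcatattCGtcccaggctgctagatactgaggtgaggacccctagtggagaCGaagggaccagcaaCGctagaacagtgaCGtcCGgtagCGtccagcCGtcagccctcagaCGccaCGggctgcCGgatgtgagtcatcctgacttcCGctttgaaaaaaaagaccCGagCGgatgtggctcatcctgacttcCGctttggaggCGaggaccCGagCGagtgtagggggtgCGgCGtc
The windows differed widely in CG content. PRSS21 held 19 CG pairs, MAGEB2 21 and BCL2A1 2, while the median over 11242 tested protein-coding genes was 26 (quartiles 18 and 34). The windows of FAM241B, CHRDL1 and INS held 25, 36 and 7. CARD16 had no window in the table used. The motif TGANTCA, which AP-1 factors bind, was searched on both strands of these 6 windows and occurred once, in the MAGEB2 window at position 193, against 4.54% of the protein-coding windows. No methylation or binding was measured, and a match is only a match of letters.

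The largest changes among well-expressed genes reached beyond these. In KHOS they included TIE1, an endothelial receptor kinase (29.7, 30.2 and 41.8 TPM against 0.575, 0.56 and 1.35 TPM; 5.54 ± 0.38). Of 4 endothelial markers tested, 3 were called higher in KHOS, 2 of them at 2-fold (27.1% and 8.58% of all genes), and each of the 5 markers was under 1 TPM on average in both lines; their part in the TIE1 result was not tested. OSCAR, a collagen receptor of osteoclasts, IRF4, a lymphoid transcription factor, and SFN, the 14-3-3 sigma protein, rose by 4.87 ± 0.30, 4.68 ± 0.55 and 4.66 ± 0.37. CLDN7, a tight junction claudin, reached 27.1 to 27.9 TPM (4.46 ± 0.20), and PLXNA2, a semaphorin receptor, 16.4 to 22 TPM (4.16 ± 0.14). TSPYL5, a nucleosome assembly family gene, rose by 8.42 ± 0.22. For each of these 7 genes the KHOS mean lay above the HOS-MNNG values without overlap, and TIE1, OSCAR, IRF4, CLDN7 and PLXNA2 also lay above the means of the 4 other osteosarcoma lines.

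In HOS-MNNG the largest was SLC14A1, the urea transporter of red cells and kidney, at 58.4, 73.0 and 58.9 TPM against 0, 0.0856 and 0 TPM (-10.30 ± 0.38). The interleukin-7 receptor IL7R had 33.4, 28 and 32 TPM against 0.344, 1.05 and 0.566 TPM (-5.87 ± 0.26). Lower in KHOS by more than 4 on the log2 scale were also ANXA3 (annexin A3), EPHB6 (an ephrin receptor without kinase activity), HS3ST3A1 (a heparan sulfate sulfotransferase), CACNA2D4 (a calcium channel subunit), ANKRD1 (a target of YAP), VGF (a secreted neuropeptide precursor) and ADGRG6 (an adhesion receptor). ANKRD1 had 273, 98.9 and 110 TPM in HOS-MNNG against 7.57, 5.95 and 8.23 TPM in KHOS.

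The plasminogen system and matrix proteases included several abundant genes that were higher in KHOS. Of 22 tested members, 8 were higher in KHOS at 2-fold and 2 were lower (45.5% against 17.7% of all genes), with a median log2 fold change of 0.41. The summed level of the list was 780, 868 and 1079 TPM in HOS-MNNG and 3154, 2546 and 3587 TPM in KHOS. PLAU, the urokinase that turns plasminogen into plasmin, held much of this sum, with 183, 163 and 329 TPM in HOS-MNNG and 1316, 1031 and 1666 TPM in KHOS (2.74 ± 0.38, adjusted p 0.00365). Its receptor PLAUR rose with it, from 36.1, 32.8 and 63.3 TPM to 221, 182 and 242 TPM (2.44 ± 0.29). Neither gene overlapped between the lines, and in HOS-MNNG library 3 was the highest for both.

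Among the metalloproteases, MMP14, a collagenase held in the cell membrane, rose from 42.5, 59.7 and 88.9 TPM to 383, 289 and 351 TPM (2.60 ± 0.29). MMP1, the interstitial collagenase, rose from 2.12, 1.04 and 2.99 TPM to 19.4, 27.2 and 35.6 TPM (3.92 ± 0.46). The tissue plasminogen activator PLAT also rose (1.33 ± 0.14). The gelatinase MMP2 was lower in KHOS by less than 2-fold (-0.48 ± 0.08), and MMP16 was lower by -3.01 ± 0.15. The protease inhibitors divided. TIMP1 rose from 171, 209 and 187 TPM to 866, 726 and 987 TPM (2.35 ± 0.11) and TIMP4 by 1.80 ± 0.18, while TIMP2 fell from 101 to 115 TPM to 39.99 to 43.55 TPM (-1.19 ± 0.07).

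**Figure D3:**
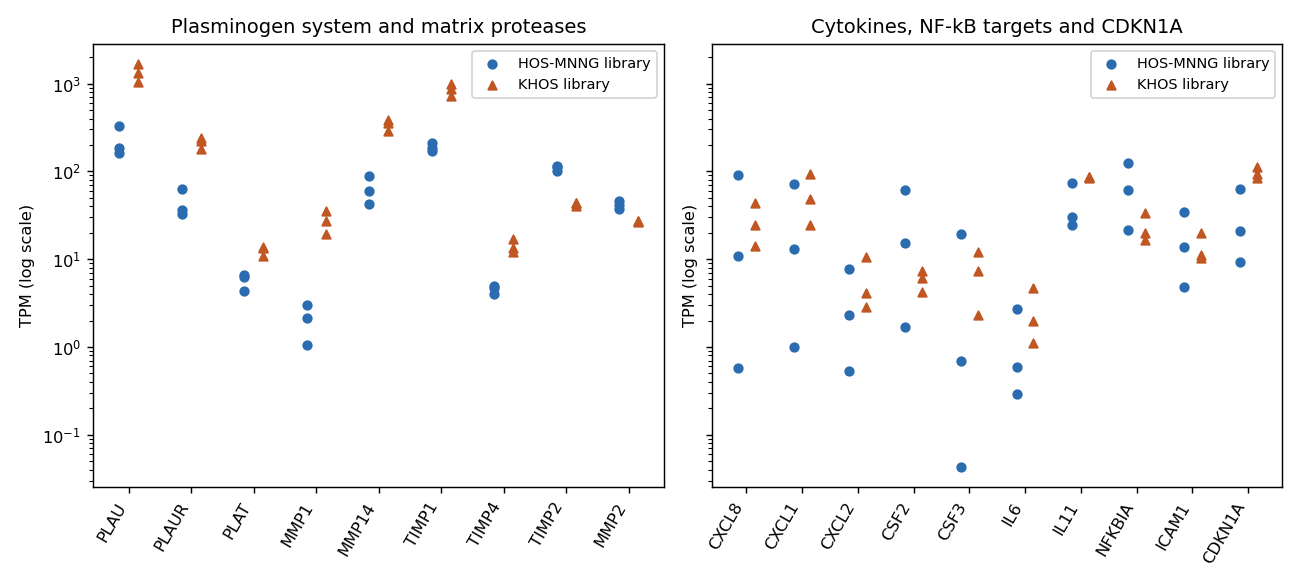
TPM on a log axis for each library, HOS-MNNG as circles and KHOS as triangles. Left, the KHOS libraries lie above for PLAU, PLAUR, PLAT, MMP1, MMP14, TIMP1 and TIMP4 and below for TIMP2 and MMP2; right, cytokine levels in HOS-MNNG spread widely and overlap those of KHOS except for IL11 and CDKN1A.

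Matrix proteins differed in both directions. Of 40 tested collagens and matrix proteins, 11 were higher in HOS-MNNG at 2-fold and 5 in KHOS (9.14% and 8.58% of all genes), with a median of -0.15. COL18A1, the source of endostatin, had 152, 182 and 168 TPM against 34.8, 37 and 40.2 TPM (-1.99 ± 0.08), and the 2 chains of type IV collagen, COL4A1 and COL4A2, differed by -1.42 ± 0.07 and -1.08 ± 0.06. LAMA4, a laminin chain, fell to under 0.2 TPM in KHOS (-4.09 ± 0.26). TGFBI, an adhesive matrix protein induced by TGF-beta, had 463, 576 and 617 TPM against 173, 174 and 192 TPM (-1.44 ± 0.09). COL12A1, a collagen that decorates fibrils, was also lower in KHOS (-2.63 ± 0.32). Higher in KHOS were COL1A1 at 151, 157 and 120 TPM against 69.2, 82.9 and 65.0 TPM (1.15 ± 0.11), COL1A2 at 4.44 to 5.72 TPM against 0.405 to 0.893 TPM (3.07 ± 0.23), and FN1, fibronectin (1.31 ± 0.25). The others higher in KHOS were THBS2, a thrombospondin (1.33 ± 0.17), and VCAN, the proteoglycan versican (1.68 ± 0.13).

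COL1A1 was at least 626 TPM on average in each of the 4 other osteosarcoma lines, above every library of either subline. COL1A2, the other chain of type I collagen, was above both sublines in 3 of the 4, while U2OS had 0.134 TPM. Of 14 tested osteoblast genes, 6 were higher in KHOS at 2-fold and 1 lower, beside 8.58% and 9.14% of all genes. SPP1, osteopontin, had 32.7, 42.2 and 22 TPM in HOS-MNNG and 257, 145 and 188 TPM in KHOS (2.77 ± 0.33), and both exceeded the other 4 lines (at most 12.8 TPM). TNFRSF11B, the decoy receptor osteoprotegerin, rose by 2.21 ± 0.42, PTH1R, the parathyroid hormone receptor, by 2.45 ± 0.25 and PDPN, podoplanin, by 2.17 ± 0.26. DLX5, an osteoblast transcription factor, was the one lower at 2-fold (-4.59 ± 0.43). RUNX2, the master regulator of the lineage, was not called (8.07 to 9.49 against 5.65 to 7.65 TPM; -0.26 ± 0.11, adjusted p 0.0652). It was called with the replicate block (0.0381), with upper-quartile scaling (0.0371) and without HOS-MNNG library 3 (0.038) or KHOS library 2 (0.0245). SP7, which acts after it, was at or near 0 in both lines.

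In the cytoskeleton, KRT8 and its partner KRT18 came apart. Keratins 8 and 18 form a filament as a pair. KRT8 had 720.4, 861.3 and 797.4 TPM in HOS-MNNG and 71.0, 59.5 and 75.7 TPM in KHOS (-3.32 ± 0.10, adjusted p 2.91e-09), while KRT18 was not called (890 to 978 against 768 to 830 TPM; -0.06 ± 0.06). In HOS-MNNG the KRT8 and KRT18 levels were alike, and in KHOS KRT8 was the lesser by far. Of 33 adhesion and mesenchymal genes tested, 6 were higher and 6 lower in KHOS at 2-fold (36.4%, beside 17.7% of all genes). The integrin subunits ITGA2 (-1.38 ± 0.10) and ITGB4 (-1.41 ± 0.31) and N-cadherin, CDH2 (-1.13 ± 0.09), were lower in KHOS, and ALCAM, an adhesion molecule, was higher (2 ± 0.08). Of 25 receptor kinases, 4 were higher and 7 lower at 2-fold (44%). PDGFRA rose (1.22 ± 0.19) and PDGFRB fell (-2.18 ± 0.18) in KHOS, so the paired receptors for PDGF went in opposite directions.

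Inflammatory genes varied widely between the HOS-MNNG libraries. Of 20 tested cytokines and NF-kB targets, 19 were not called, while 54.6% of all genes were called, and IL24 alone was lower in KHOS (-4.78 ± 1.01, adjusted p 0.00653). The calls of this list depend on the fit, since 6 members passed 2-fold with the replicate block and 3 by DESeq2, against 1 here. CXCL8, interleukin-8, had 0.580, 10.9 and 90.8 TPM in HOS-MNNG and 14.2, 24.7 and 43.6 TPM in KHOS (-0.11 ± 1.54, adjusted p 0.962). CSF3 had 0.0426, 0.686 and 19.3 TPM against 2.31, 7.34 and 12.2 TPM. The list summed to 113, 226 and 627 TPM in HOS-MNNG and to 242, 300.4 and 431 TPM in KHOS, so library 1 of HOS-MNNG was lowest of all 6 and library 3 highest. CDKN1A, the p21 inhibitor of the cell cycle, was also lowest in HOS-MNNG library 1, with 9.17, 20.7 and 62.6 TPM in HOS-MNNG and 93.1, 83.3 and 111 TPM in KHOS. It did not overlap between lines, yet was not called (1.81 ± 0.76, adjusted p 0.115). It was called by DESeq2 (0.0468), in the fit of all 45 libraries (0.000502) and without HOS-MNNG library 3 (2.85 ± 0.39, 0.0061). Among 8917 protein-coding genes with a mean of at least 5 TPM in both lines, 15 ranged at least 4-fold (highest over lowest, with 0.1 TPM added) between the HOS-MNNG libraries, CXCL8, CXCL1, CSF2, CSF3, NFKBIA, ICAM1, RELB and CDKN1A among them. Between the KHOS libraries 5 did, namely EGR1, FOS, DUSP1, CSF3 and COXFA4L3. Both sets were taken after the values were seen. What set these libraries apart was not tested.

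HOX genes, which hold a cell's memory of its position in the body, differed by cluster. The genes lie in 4 clusters, named A to D, on different chromosomes. Of 34 HOX genes tested, 6 were higher in KHOS and 17 lower (27.1% and 27.5% of all genes), and 9 passed 2-fold (26.5%, beside 17.7% of all genes). All 9 HOXC genes tested were lower in KHOS in estimate, with 8 called, 6 of them at 2-fold, and a median log2 fold change of -1.45. HOXC8 had 9.74, 8.63 and 7.95 TPM in HOS-MNNG and 1.76, 1.81 and 1.82 TPM in KHOS (-2.12 ± 0.16), and HOXC6 16.5, 17.7 and 14.2 against 3.37, 2.60 and 4.22 TPM (-2.02 ± 0.18). All 5 HOXD genes tested were lower in KHOS as well (median -0.79). Of 11 HOXA genes, 6 were higher in KHOS, none was lower and 5 were not called, led by HOXA7 at 29 to 30.1 against 12.3 to 13.8 TPM (1.33 ± 0.10) and HOXA6 (1.04 ± 0.23). Of 9 HOXB genes, 4 were lower in KHOS and 5 were not called. The split by cluster was made after the values were seen, and neighbouring genes of a cluster are not independent.

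**Figure D4:**
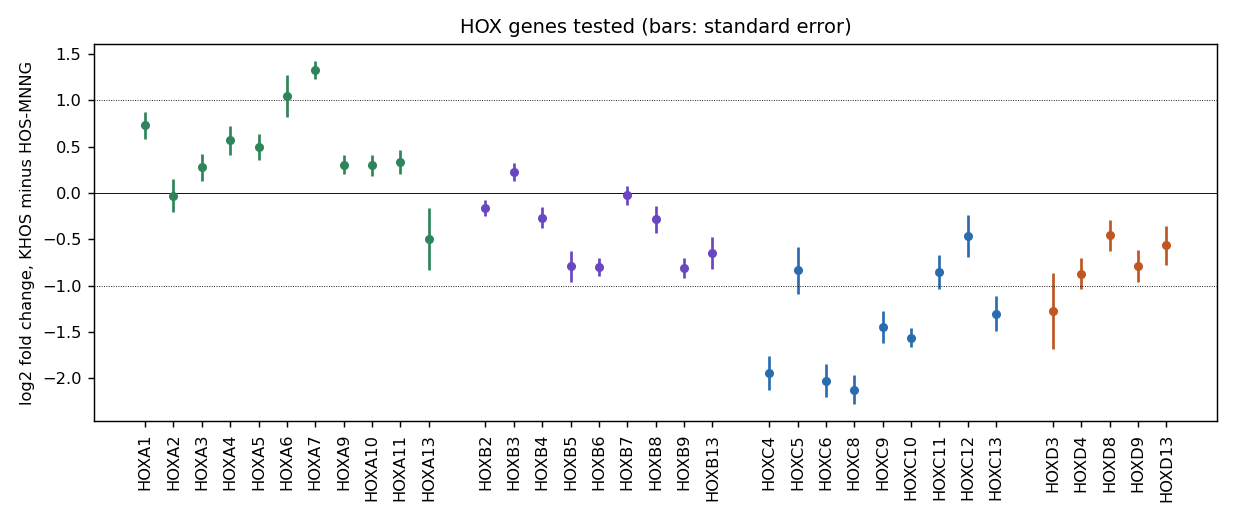
Log2 fold change, KHOS minus HOS-MNNG, of each HOX gene tested, ordered by cluster and coloured by it, with standard errors from 3 libraries a line and dotted lines at 2-fold. HOXC genes fall between -2.12 and -0.46, and HOXA genes lie between -0.50 and 1.33.

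Differences also followed position along chromosomes, as long runs of neighbouring genes shifted together. Chromosome 21 had a median log2 fold change of -0.70 over 222 tested genes, with 62 higher in HOS-MNNG at 2-fold (27.9%, against 9.14% of all genes) and 5 higher in KHOS. Chromosome 13 had a median of -0.32. Chromosome 11 went the other way, at 0.43 over 932 genes, with 172 higher in KHOS at 2-fold (18.4%, against 8.58% of all genes) and 47 higher in HOS-MNNG. Over 51 neighbouring genes the running median lay between -0.97 and 1.12 across the genome. Its highest value was on the long arm of chromosome 1, from BATF3 to DNAH14 (chr1:212686417-225399286), where 30 of 51 genes were higher in KHOS at 2-fold and 3 lower.

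Similar blocks stood on the short arms of chromosomes 11 and 7. The end of chromosome 11 up to DUSP8 (chr11:148743-1572848) had a median of 1.10, and HRAS lies inside it with a fold change of its own of 1.04, close to the block. A block from TRIM34 to RNF141 (chr11:5619944-10541187) had 1.08, and on chromosome 7 a block that ends at SEC61G (chr7:43866558-54759211) had 1.03, with IGFBP3 inside it. On the HOS-MNNG side, RRP1 to PRMT2 on chromosome 21 (chr21:43789577-46665124) had -0.97 and held COL18A1 and LSS, and ENPEP to HSPA4L on chromosome 4 (chr4:110476155-127840733) had -0.90 and held SPRY1 and FGF2. These 4 genes changed by more than their block. Another block, C19orf48P to CACNG7 (chr19:50797704-53943950) at -0.86, lies in a region rich in zinc finger genes. No DNA was measured.

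**Figure D5:**
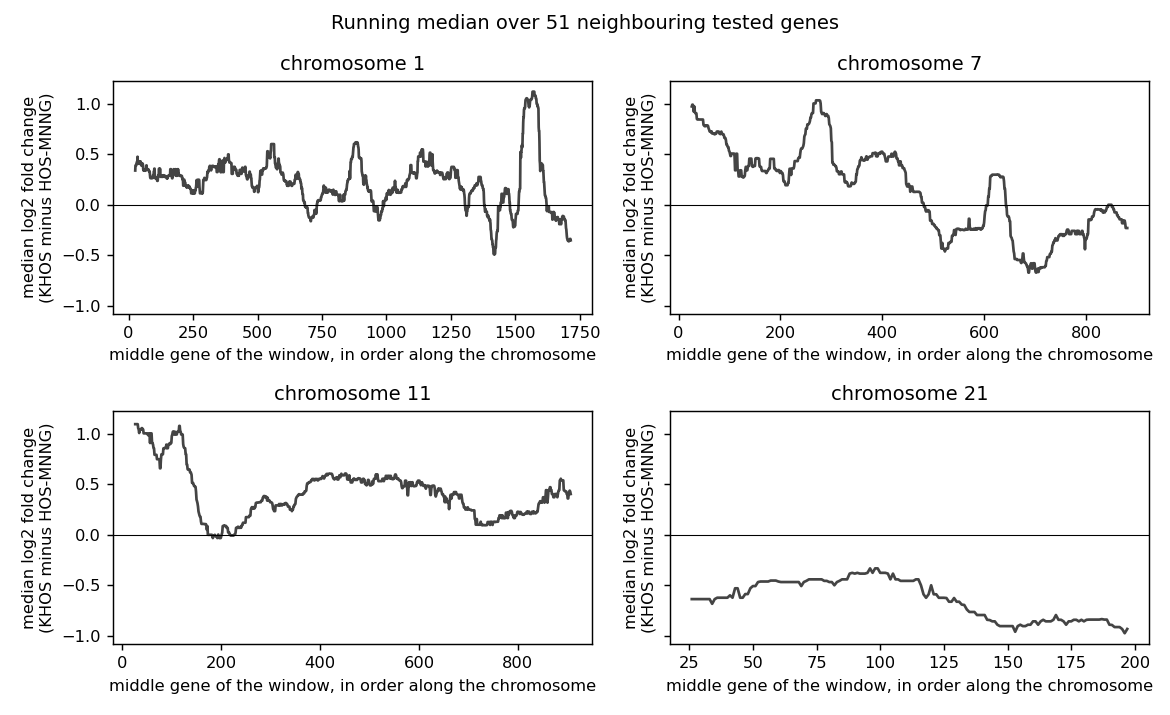
Median log2 fold change, KHOS minus HOS-MNNG, over 51 neighbouring tested genes along chromosomes 1, 7, 11 and 21, by order of genes. Blocks near or above 1 stand on chromosomes 1, 7 and 11, and all of chromosome 21 lies below 0.

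Some features were shared by the sublines. CDKN2A and CDKN2B, the cell cycle inhibitors of chromosome 9, had 3 and 2 counts over the HOS-MNNG libraries and 0 over the KHOS libraries. MG63 was likewise listed at 0 TPM for both genes, and U2OS had means of 0.059 TPM for CDKN2A and 2.95 TPM for CDKN2B. Their neighbour MTAP, a housekeeping enzyme, was 0.108 to 0.317 TPM in all 6 libraries, while the 39 libraries of other lines had at least 13.6 TPM. TERT, the telomerase subunit, was detected in both (1.20 to 1.56 against 2.22 to 3.12 TPM; 1.10 ± 0.18).

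Genes of alkylation damage and mismatch repair, the pathways that meet MNNG lesions, seldom passed 2-fold. Of 16 tested, 9 were called at any size, beside 54.6% of all genes, and 1 passed 2-fold, beside 17.7%. It was ALKBH2, which removes methyl groups from DNA bases (12.5 to 14 against 25.6 to 28.6 TPM; 1.18 ± 0.12). MGMT, which repairs the lesion through which MNNG kills, was low in both at 1.52, 2.01 and 1.91 TPM in HOS-MNNG and 1.18, 1.20 and 1.08 TPM in KHOS (-0.47 ± 0.16). That call was lost by DESeq2 (adjusted p 0.0569), with no low-count filter (0.0546) and without any of 4 of the 6 libraries (HOS-MNNG 2 or 3, KHOS 1 or 3). In the cell cycle lists, 1 of 42 S phase genes (DTL) and 3 of 52 G2/M genes (PSRC1, NEK2 and GAS2L3) were called at 2-fold, beside 17.7% of all genes. At any size 17 S phase genes were higher in HOS-MNNG and 4 in KHOS, and 23 G2/M genes were higher in HOS-MNNG and 13 in KHOS, beside 27.5% and 27.1% of all genes. PCNA, the clamp of DNA replication, had 385 to 457 TPM in HOS-MNNG and 264 to 299 TPM in KHOS (-0.43 ± 0.09).

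Among the remaining lists, 6 of 20 tested drug efflux and detoxification genes were higher in KHOS at 2-fold and 2 lower (ABCB1 and ABCC3), beside 8.58% and 9.14% of all genes, and 8 of the 20 were not called. GSTM1, a glutathione transferase, rose from 46.2 to 49.9 TPM to 126 to 134 TPM (1.60 ± 0.08) and GSTM2 by 3.75 ± 0.18, though these neighbours are near-identical and their reads may be divided between them. The efflux pump ABCB1 was lower in KHOS (-1.55 ± 0.18). Of 25 interferon response genes, 7 were higher in KHOS and 3 lower at 2-fold, beside 8.58% and 9.14% of all genes. OAS2, an antiviral synthetase, rose from at most 0.0763 TPM to 3.18 to 4.08 TPM (6.49 ± 0.34), while MX1 fell (-1.85 ± 0.36), as did IFI44L and USP18. MX1 lies in a block of chromosome 21, RIPPLY3 to CSTB, with a running median of -0.86. Its call was lost in the fit of all 45 libraries (adjusted p 0.0811). Of 28 tested genes of the TGF-beta and BMP list, 5 were higher in KHOS and 4 lower at 2-fold (32.1%, beside 17.7% of all genes). The ligand BMP6 rose (1.97 ± 0.18). The BMP antagonist GREM1 was higher as well (2.52 ± 0.53, adjusted p 0.016), a call lost with the replicate block (0.089) and without HOS-MNNG library 2 (0.0528) or 3 (0.0569) or KHOS library 2 (0.0502) or 3 (0.052). TGFBR1, the type I receptor, fell from 10.01 to 14.42 TPM to 2.19 to 2.83 TPM (-2.07 ± 0.13) and SMAD6, an inhibitor, fell by -2.02 ± 0.21. Of 27 tested WNT genes, 7 were higher in KHOS and 4 lower at 2-fold (40.7%). The transcription factor LEF1 rose (2.28 ± 0.16) and the WNT antagonist FRZB fell (-4.06 ± 0.19). Of 22 hypoxia and glycolysis genes, 3 passed 2-fold, all lower in KHOS (13.6%). EGLN3, the oxygen-sensing hydroxylase, fell by -3.73 ± 0.30.

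Of 4 tested calcium-activated potassium channel genes, 2 were called, both higher in KHOS, a share near the 54.6% of all genes called. KCNN4, the intermediate-conductance channel, had 8.33, 16.6 and 16 TPM in HOS-MNNG and 46.1, 36.1 and 40.8 TPM in KHOS (1.84 ± 0.24, adjusted p 0.000696). KCNMA1, the large-conductance channel, rose in TPM from 104, 123 and 126 to 234, 273 and 248 TPM, but its counts rose by only 0.39 ± 0.07. With an offset for effective length the value was 1.26 ± 0.09, so its size depends on the length of the transcripts that were assigned. The most abundant protein-coding message to differ at 2-fold was S100A6, a calcium-binding protein, at 6865, 7688 and 7791 TPM in HOS-MNNG and 19400, 18200 and 17660 TPM in KHOS (1.45 ± 0.06).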

How the data were processed

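Poly(A) RNA libraries of human cell lines were analysed, 3 of HOS-MNNG and 3 of KHOS, with groups and replicate numbers taken from the titles. Per the submitters' processing notes, fastp 0.19.5, kallisto 0.46.2 and the build GRCh38.p14 (hg38) were used. Per the file headers, the authors deposited for each library a table of 177816 RefSeq transcripts with estimated counts (not scaled for depth) and TPM, scaled by the authors to length and depth. The deposited effective lengths served in 1 alternative. Tool settings were not found in the labels. Per the labels, libraries were made with a stranded mRNA kit.

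Transcripts were matched to genes by RefSeq accession (169966 of 177816, 95.59%) and summed to 41582 genes, and the sums of estimated counts were rounded. The test was edgeR 4.0.16 quasi-likelihood (TMM scaling, filterByExpr, robust) on the 6 libraries, with Benjamini-Hochberg adjustment over all 17440 genes tested. Standard errors are the fold change over the root of the F statistic. Promoter windows were those of RefSeq. Python 3.11 and R 4.3.3 were used, and the code was tested on simulated counts. For 3 libraries against 3 the smallest exact 2-sided permutation p is 0.1, so single genes in TPM cannot pass 0.05 alone; 20 of the 32 genes always named reached it.

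Named genes were 32 always named, the 10 largest rises and falls among called protein-coding genes with a mean of at least 10 TPM and no overlap, genes on in 1 line and off in the other, up to 4 members called at 2-fold with at least 2 TPM per list, and the 5 most abundant genes. Some others were named after their values were seen: VIM, MAP2K1, MAP2K2, IL11, FAM241B, CHRDL1, RASGRP3, SPRED1, DUSP4, CCND1, MST1R, PLAUR, PLAT, TIMP1, TIMP2, TIMP4, MMP2, COL4A1, COL4A2, TGFBI, THBS2, VCAN, PTH1R, PDPN, KRT18, CDH2, CDKN1A, IL24, CSF3, HOXA6, HOXA7, ABCB1, ABCC3, MX1, IFI44L and USP18, and the genes of wide spread between libraries. Members and the 36 gene lists were chosen with earlier results of these data known. Alternatives were another test, scaling, filter, length offset, transcript set or pooled fit, a replicate block, and each library left out. Genes of chromosome Y and XIST were left out, and some genes that the rule names are not reported here. Of the genes on in 1 line only protein-coding ones are described, a limit set after the values were seen.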

Additional observations from a re-analysis of the deposited data

How the results depend on the processing

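The count of called genes stayed between 6522 (fit of all 45 libraries) and 10014 (no low-count filter) under every other test, scaling, filter and transcript set tried, against 9521, and the count at 2-fold stayed between 2320 and 3827, against 3091. Testing against a 2-fold change gave 1580 genes, 735 higher in KHOS and 845 in HOS-MNNG. Without each library in turn, 8387 to 9416 genes were called and 3082 to 3274 at 2-fold. The correlations of deviations were 0.061, -0.00888 and 0.105 between same-numbered libraries and -0.115 to 0.0513 between libraries of different number. Whether the replicate numbers pair the libraries cannot be told from these values. With the number as a replicate block, 9475 genes were called and 3103 at 2-fold, and 6 members of the cytokine list passed 2-fold where 1 did without the block and 3 did by DESeq2. Upper-quartile scaling moved the median of all genes to -0.04, and 45.4% of the genes called at 2-fold were then higher in KHOS against 48.4%.

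Spearman's rho between the sublines was 0.939 with no filter on low genes. Running medians over 25 genes reached -1.78, in the protocadherin cluster of chromosome 5, whose genes share exons, and 1.24 on chromosome 1. Among the genes named, signs turned only for some that were not called. CXCL8 was 1.07 with the replicate block and 1.67 by limma voom, and ranged from -0.68 to 2.48 without single libraries. The ranges without single libraries were -0.28 to 4.55 for CSF3, -0.15 to 0.047 for PHLDA1 and -0.0033 to 0.28 for DUSP6. The cause was not tested. In the fit of all 45 libraries, whose spread is pooled over lines, 12 genes named as called lost the call, MET (adjusted p 0.231) and FOSL1 (0.311) among them. With 3 libraries a line, genes of a few counts have no usable fold change.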
